A study of Rattus norvegicus with 24 samples.

Results

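The genes of respiratory complex I were followed in rat hypothalamus as all probe sets whose only gene symbol begins with Nduf. They were 42 of the 14217 genes with such a probe set, and 46 of the 31042 probe sets tested. Of the 46, 39 probe sets of 36 genes carry subunit-type names and 7 probe sets of 6 genes carry the Ndufaf names of assembly factors. RNA came from 18 male rats of the outbred Wistar strain, 7 weeks old, and was measured on 1 Affymetrix 3' expression array per rat. The 6 linalool rats were restrained for 2 h in a 40 L box into which 20 µL of (R,S)-linalool, a monoterpene alcohol of lavender and other plant oils, had been evaporated. The 6 stress rats were restrained for the same time without the odour, and the 6 controls were not restrained. The hypothalamus was dissected as a block right after the exposure. Each comparison stays within 12 arrays that were normalized jointly by the authors: linalool under stress against stress, and stress against control. The same 6 stress arrays enter both, with separate values in each set.

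Complex I oxidises NADH in the mitochondrial matrix, passes the electrons to ubiquinone and pumps protons across the inner membrane, and it is the main entry point of electrons into the respiratory chain. It is L-shaped: the matrix arm carries the flavin and iron-sulfur clusters, and the membrane arm carries the proton pumps. Its catalytic core comes from nuclear Nduf genes and from the mitochondrial ND genes, many nuclear accessory subunits surround that core, and assembly factors that leave the finished enzyme put the modules together. Neurons rely on mitochondrial respiration for ATP. No probe set of the table was matched to a mitochondrial ND gene, so the results concern nuclear genes only. Ndufs5, Ndufa10, Ndufaf2 and Ndufaf6 had no probe set with a single symbol and are not analysed here as members.

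Promoters are shown for 3 subunit genes that were higher in linalool than in stress rats and for the 2 complex I genes that were lower. The letters near the start of both kinds can so be read beside the values. Only genes whose window held a match to a searched motif were eligible. Among these the 3 had the largest differences relative to the spread within groups. That each sequence holds a match was thus fixed by the choice. They were taken from RefSeq (GRCr8), from 150 bases before the transcription start to 30 after it, and lie at chr1:74515529-74515708 on the minus strand (Ndufa3), chr9:1637464-1637643 on the plus strand (Ndufa11), chr7:30658166-30658345 on the plus strand (Ndufa12), chr7:10110469-10110648 on the minus strand (Ndufs7) and chr7:65242019-65242198 on the plus strand (Ndufa4l2). Capitals mark matches to AAGATGG, the letters of a YY1 site, or to those of an NRF-1 site (GCGC, any base, TGCGC), on either strand; YY1 and NRF-1 are transcription factors known for binding promoters of respiratory chain genes.
Ndufa3: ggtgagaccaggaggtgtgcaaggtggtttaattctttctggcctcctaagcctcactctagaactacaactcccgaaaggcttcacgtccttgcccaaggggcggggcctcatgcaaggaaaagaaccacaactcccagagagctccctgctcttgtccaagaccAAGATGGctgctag
Ndufa11: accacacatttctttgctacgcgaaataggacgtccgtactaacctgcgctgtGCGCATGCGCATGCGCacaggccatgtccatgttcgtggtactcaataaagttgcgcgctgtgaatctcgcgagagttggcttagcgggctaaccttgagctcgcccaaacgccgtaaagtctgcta
Ndufa12: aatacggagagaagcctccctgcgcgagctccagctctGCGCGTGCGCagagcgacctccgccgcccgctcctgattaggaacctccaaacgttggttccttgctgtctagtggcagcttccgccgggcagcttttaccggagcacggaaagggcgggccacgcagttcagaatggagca
Ndufs7: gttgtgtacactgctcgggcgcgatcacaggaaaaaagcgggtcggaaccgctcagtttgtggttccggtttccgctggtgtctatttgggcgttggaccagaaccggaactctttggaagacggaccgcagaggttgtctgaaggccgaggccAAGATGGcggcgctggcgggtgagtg
Ndufa4l2: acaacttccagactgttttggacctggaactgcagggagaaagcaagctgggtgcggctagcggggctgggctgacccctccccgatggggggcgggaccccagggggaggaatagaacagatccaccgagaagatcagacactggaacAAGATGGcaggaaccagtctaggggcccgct

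Ndufa11 holds a pair of overlapping NRF-1 matches and Ndufa12 holds 1. The 5 sequences do not separate the genes that were higher from those that were lower, since the YY1 letters lie near the start of Ndufa3, which was higher, and of Ndufs7 and Ndufa4l2, which were lower. In the full windows, from 250 bases before to 50 after the start, 40 of the 42 genes were matched, all but Ndufa8 and Ndufb9. The YY1 letters stood in 10 of 40 windows (25.0%), against 7.01% of all 33469 rat promoter windows and 7.29% of those of protein-coding genes. In 9 of the 10 genes the match began after the transcription start, between base 3 and base 27. The NRF-1 letters stood in 8 of 40 (20%, against 4.25% of all windows and 5.67% of coding ones), and CCGGAAG, the letters of an ETS site of the factor GABP, in 9 of 40 (22.5%, against 8.75% and 10.7%). AAGGTCA, the half-site of estrogen-related receptors, stood in 3 of 40 (7.5%, against 4.61% and 3.78%). Both strands were searched, and none of the 4 motifs contains another. At least 1 of the 4 was found in 24 of 40 windows (60.0%), against 22.0% of all windows. Among the 26 matched genes that were higher with linalool, 6 held the YY1 letters (23.1%), 6 the ETS letters (23.1%) and 5 the NRF-1 letters (19.2%). Among the 14 others the counts were 4 (28.6%), 3 (21.4%) and 3 (21.4%), while all 3 genes with the estrogen-related half-site (Ndufb2, Ndufb4 and Ndufs6) were among the higher ones. These matches describe letters, not occupied sites.

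The deposited values have a property that sets how every difference below can be read. In 83.7% of all probe sets in the linalool set, and in 83.5% in the control set, the 12 arrays differed so little that the residual standard deviation (SD) within groups was under 0.01 on the log2 scale. Such probe sets are called compressed here, and their log2 differences are near 0 whatever their test result. For this reason differences are given both on the log2 scale and as multiples of the probe set's own residual SD, for which the standard error (SE) of a difference between 2 means of 6 arrays is 0.577. Of the 46 complex I probe sets, 28 were compressed in the linalool set and 39 in the control set. Each value rests on 6 rats per group, and this number limits the precision. The tissue label was checked on 11 hypothalamic markers, which did not all read high. Avp, the vasopressin gene, averaged 11.75 ± 0.794 in linalool rats and 11.37 ± 0.883 in stress rats (log2, SD, n = 6 each). Pmch, the gene of melanin-concentrating hormone, averaged 12.48 ± 0.304 in linalool rats and 12.32 ± 0.228 in stress rats. In linalool rats Oxt, Hcrt, Hdc, Trh and Crh averaged 10.92, 10.09, 9.18, 8.42 and 7.81. Nkx2-1, Pomc, Otp and Sim1 averaged 8.39, 7.41, 6.88 and 6.80 there, all on compressed values. Tissue blocks hold many cell types, and fewer cells of a type cannot be told apart from less RNA per cell.

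With linalool, 28 of the 46 complex I probe sets were higher than in stress rats past an adjusted p of 0.05 (60.9%), 2 were lower and 16 did not pass. Over all 31042 probe sets in this comparison 25% passed, 14.2% higher and 10.8% lower (limma, Benjamini-Hochberg adjustment over all probe sets, two-sided). By gene, taking the probe set with the highest mean, 28 of 42 were higher (66.7%), where 19.3% of all 14217 genes taken the same way were higher and 9.08% lower. The median difference of the 46 was 2.04 residual SDs, beside -0.014 over all probe sets, and 40 of the 46 differences were positive. For 19 of the 46 all 6 linalool arrays lay above all 6 stress arrays, which was so for 7.56% of all probe sets, and for 0 of the 46 did they lie below, against 4.36% of all. The 18 uncompressed members were all among the 28 higher ones, whereas 28.4% of the 5058 uncompressed probe sets on the array were higher. Their log2 differences lay between 0.11 and 0.41, with a median of 0.25. Of the 28 compressed members 10 were higher and 2 were lower, against 11.4% higher and 8.79% lower among all compressed probe sets.

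**Figure D1:**
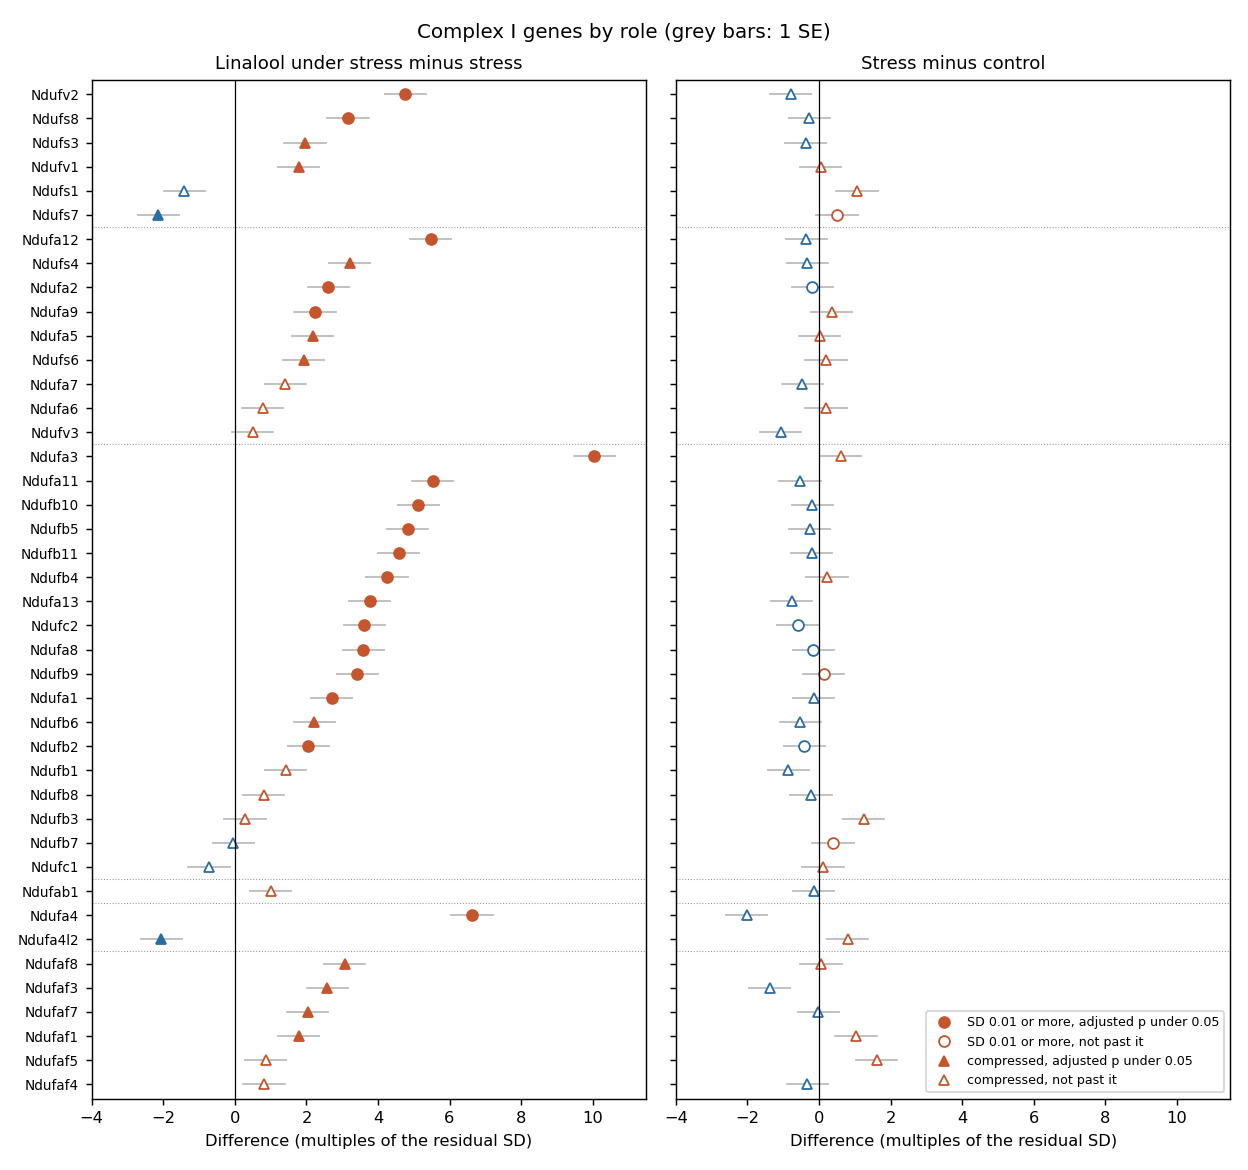
Difference in each of the 42 complex I genes, in multiples of its residual SD (horizontal axis), for linalool under stress minus stress on the left and stress minus control on the right. Genes run down the page by role (core subunits, matrix-arm and membrane-arm accessory subunits, the acyl carrier, the Ndufa4 family, Ndufaf assembly factors, split by dotted lines). Orange marks lie above 0 and blue below, filled marks passed an adjusted p of 0.05, triangles are compressed probe sets, and grey bars are 1 SE (0.577). On the left 28 genes passed above 0 and 2 below; on the right none passed.

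The catalytic core was represented by 6 nuclear subunits of the matrix arm, of which 4 were higher and 1 was lower with linalool. Ndufv2, an iron-sulfur subunit of the NADH-oxidising tip, ranged from 11.25 through a median of 11.28 to 11.37 in linalool rats, against 10.95, 11.01 and 11.14 in stress rats (log2 signal; difference 0.28, SE 0.0328, adjusted p = 0.000383). All 6 linalool arrays lay above all stress arrays, the highest of which was rat 2. Ndufs8, which carries iron-sulfur clusters on the way to ubiquinone, had 10.76, 10.81 and 10.86 in linalool rats, against 10.64, 10.70 and 10.75 in stress rats (difference 0.11, SE 0.0201, adjusted p = 0.00308), and its groups did not overlap either. Ndufs3, a subunit of the quinone-reducing module, and Ndufv1, which binds the flavin and NADH, were compressed and higher by 1.96 and 1.78 residual SDs (adjusted p = 0.0325 and 0.049). Their arrays overlapped, and these calls were among those lost most easily: over 12 fits that each left out 1 array, Ndufs3 passed in 6 and Ndufv1 in 2. Ndufs1, the large iron-sulfur subunit, differed by -1.41 residual SDs and did not pass (adjusted p = 0.109).

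Ndufs7, the subunit with the last iron-sulfur cluster before ubiquinone, was the core subunit that fell. Its values were 11.37403, 11.37409 and 11.37418 in linalool rats, against 11.37417, 11.37420 and 11.37431 in stress rats, a difference of -2.14 residual SDs (adjusted p = 0.0248). Of the linalool arrays 5 lay below all stress arrays, and the groups differ only in the fourth decimal of the log2 signal. In the set normalized with the controls the SD of the same 6 stress arrays was 0.0382 for this probe set, against 5.5e-05 here. The call was lost without linalool rat 2 (adjusted p = 0.0529). With each array centred on its median the gene passed as higher instead (1.47 residual SDs, adjusted p = 0.0358). So did 27524 of all 31042 probe sets under that centring. After quantile normalization of the arrays 0 of the 12 calls on compressed complex I probe sets held, against 17 of the 18 on uncompressed ones (all but Ndufb2).

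Accessory subunits of the matrix arm, which shape the arm and hold nucleotides or cofactors, were higher for 6 of 9 genes and lower for 0. Ndufa12, which takes the place of the assembly factor Ndufaf2 in the finished enzyme, had 11.40, 11.46 and 11.55 in linalool rats, against 11.04, 11.09 and 11.23 in stress rats (difference 0.36, SE 0.0374, adjusted p = 0.000212), with no overlap. Ndufs4, a late-joining subunit whose loss causes a Leigh-like encephalopathy in mice, was higher by 3.21 residual SDs (adjusted p = 0.00314), also without overlap but on compressed values. Ndufa2 and Ndufa9 were uncompressed and higher by 0.25 and 0.12 on the log2 scale (adjusted p = 0.00784 and 0.0164), with overlapping arrays. The other 2 that rose, Ndufa5 and Ndufs6, were compressed (2.17 and 1.93 residual SDs). The call on Ndufs6 held in 4 of the 12 fits with an array left out. Ndufa7, Ndufa6 and Ndufv3 differed by 1.41, 0.77 and 0.50 residual SDs and did not pass.

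Of the membrane-arm accessory subunits, which brace the proton pumps, 13 of 18 genes were higher (72.2%) and 0 lower, and the median difference was 3.50 residual SDs. Ndufa3, a small subunit of the membrane arm close to the matrix arm, had 11.64, 11.67 and 11.69 in linalool rats, against 11.17, 11.26 and 11.34 in stress rats. The difference of 0.41 (SE 0.0232, 10.04 residual SDs, adjusted p = 1.89e-05) left a gap between the groups wider than the range within either. Ndufa11, which helps to hold the membrane arm together, had 10.56, 10.59 and 10.66 in linalool rats, against 10.18, 10.24 and 10.40 in stress rats (difference 0.34, SE 0.0350, adjusted p = 0.000198). Ndufb5 had 11.48, 11.51 and 11.55 in linalool rats, against 11.04, 11.20 and 11.30 in stress rats (difference 0.32, SE 0.0379, adjusted p = 0.000361). Neither gene's groups overlapped; stress rat 2 was the highest stress array in both, and stress rat 6 was the lowest for Ndufb5.

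Ndufb11, encoded on the X chromosome in mammals, had 10.70, 10.79 and 10.84 in linalool rats, against 10.39, 10.48 and 10.60 in stress rats (difference 0.30, SE 0.0372, adjusted p = 0.000473). Ndufb10, with twin cysteine motifs on the intermembrane side, had 11.25, 11.30 and 11.35 in linalool rats, against 10.96, 11.05 and 11.12 in stress rats (difference 0.26, SE 0.0283, adjusted p = 0.000285). The linalool arrays of both lay above every stress array. Of the other 8 that rose, Ndufb4, Ndufa13 (also called GRIM-19), Ndufc2, Ndufa8, Ndufb9 and Ndufa1 had log2 differences of 0.14 to 0.28 and no overlap, Ndufb2 was higher by 0.22 with overlap (adjusted p = 0.0238), and Ndufb6 was compressed with no overlap (2.22 residual SDs, adjusted p = 0.0186). The call on Ndufb2 held in 9 of the 12 fits that left out an array. The 5 members that did not pass, Ndufb1, Ndufb8, Ndufb3, Ndufb7 and Ndufc1, were all compressed and lay between -0.72 residual SDs (Ndufc1) and 1.42 residual SDs (Ndufb1). Ndufab1, the mitochondrial acyl carrier protein that sits in both arms, differed by 1.00 residual SD and did not pass (adjusted p = 0.246).

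**Figure D2:**
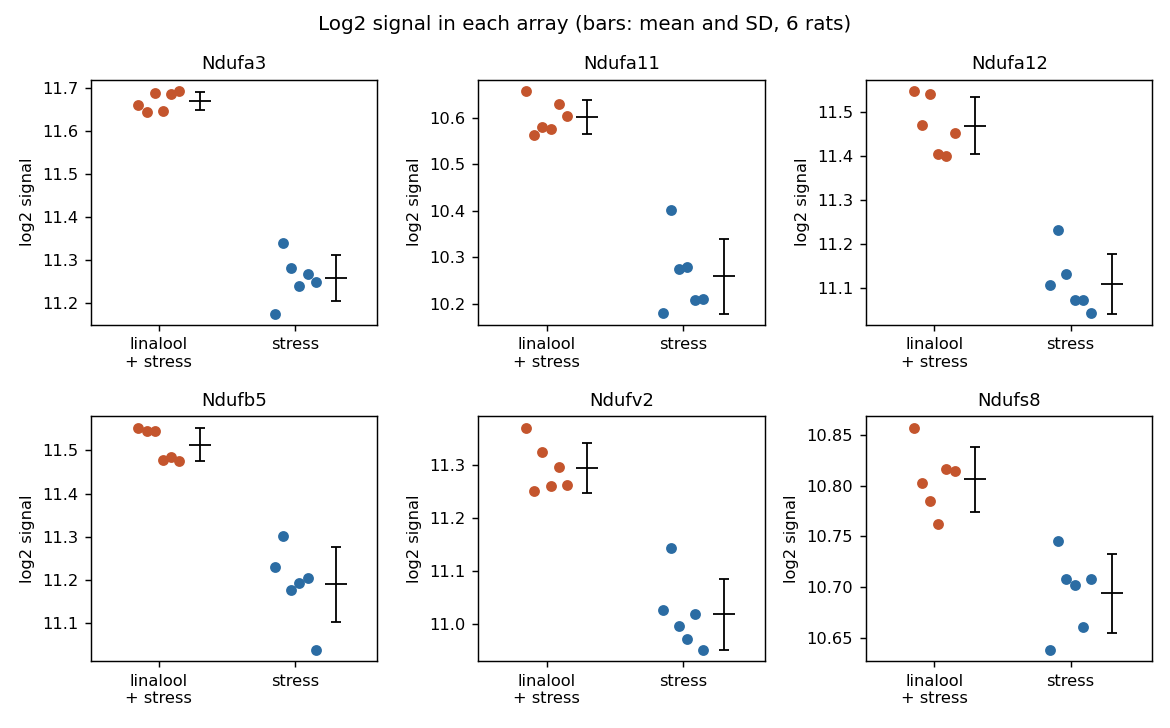
Deposited log2 signal (vertical axis, one scale per gene) of 6 uncompressed complex I genes in each linalool plus stress array (orange) and each stress array (blue), with the mean and SD of 6 rats beside the points. In all 6 genes the lowest linalool array lies above the highest stress array.

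The Ndufa4 pair moved in opposite directions on the deposited values, but not after quantile normalization or median centring, where Ndufa4l2 differed by 0.47 and 0.87 residual SDs. Ndufa4, named as a complex I subunit but since placed in cytochrome c oxidase, had 12.31, 12.33 and 12.40 in linalool rats, against 12.09, 12.13 and 12.15 in stress rats (difference 0.23, SE 0.0195, 6.63 residual SDs, adjusted p = 9.74e-05). Its groups did not overlap. Ndufa4l2, a paralogue known to be induced in hypoxia, had 7.90555, 7.90710 and 7.90923 in linalool rats, against 7.90813, 7.91049 and 7.91142 in stress rats. It fell by 2.06 residual SDs (adjusted p = 0.0234), on compressed values, with 5 of 6 linalool arrays below all stress arrays. That call was lost without linalool rat 2, stress rat 3 or stress rat 4 (adjusted p up to 0.0516).

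Of the 6 Ndufaf assembly factors 4 were higher and 0 lower, all on compressed values. Ndufaf8, the partner of Ndufaf5, was higher by 3.07 residual SDs (9.66620, 9.66661 and 9.66736 in linalool rats, against 9.66423, 9.66481 and 9.66613 in stress rats, adjusted p = 0.00358). Ndufaf3, which works on the quinone module, was higher by 2.58 residual SDs (9.54319, 9.54333 and 9.54343 in linalool rats, against 9.54307, 9.54315 and 9.54318 in stress rats, adjusted p = 0.00978). Both groups of arrays stayed apart for these genes. Ndufaf7, a methyltransferase of the matrix, and Ndufaf1, part of the complex that builds the membrane arm, were higher by 2.03 and 1.79 residual SDs (adjusted p = 0.026 and 0.0461) with overlapping arrays. Their calls held in 6 and 3 of the 12 fits with an array left out. Ndufaf5, which hydroxylates Ndufs7, and Ndufaf4 differed by 0.86 and 0.81 residual SDs and did not pass.

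Of 12 measured assembly genes that carry other names, 7 were higher with linalool and 0 lower, beside 19.3% and 9.08% of all genes. Tmem126a had 9.05, 9.14 and 9.20 in linalool rats, against 8.67, 8.77 and 8.89 in stress rats (difference 0.37, SE 0.0408, adjusted p = 0.000292), with no overlap. Ecsit, of the membrane-arm assembly complex, had 9.03, 9.13 and 9.18 in linalool rats, against 8.81, 8.87 and 8.98 in stress rats (difference 0.24, SE 0.0325, adjusted p = 0.000749), again with no overlap. Timmdc1, Dmac1, Dmac2, Tmem242 and Tmem186, all assembly genes with compressed values, were higher by 4.04, 3.35, 2.48, 1.91 and 1.87 residual SDs (adjusted p between 0.000881 and 0.0362). The calls on Tmem242 and Tmem186 held in 7 and 3 of the 12 fits with an array left out. After quantile normalization Dmac1, Dmac2, Tmem242 and Tmem186 did not pass (limma adjusted p between 0.403 and 0.996). They then differed by 0.053, 0.47, -0.028 and 0.73 residual SDs. Tmem126a, Ecsit and Timmdc1 still passed as higher. Acad9, Foxred1, Nubpl, Tmem126b and Tmem70 did not pass.

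Of 12 regulators of mitochondrial gene expression 3 were higher and 1 was lower, with a median of -0.300 residual SDs. These shares lie near those of all genes (19.3% higher, 9.08% lower) and are no result about the list. Tfam, which packages mitochondrial DNA and acts as a factor in its transcription, had 9.38, 9.44 and 9.48 in linalool rats, against 9.17, 9.22 and 9.39 in stress rats (difference 0.19, SE 0.0342, adjusted p = 0.00294). Stress rat 2 reached into the linalool range and the other stress arrays lay below it. Gabpb1, a subunit of the factor GABP, and the mitochondrial transcription factor Tfb2m were higher by 3.79 and 2.71 residual SDs (adjusted p = 0.00167 and 0.0072), and the coactivator Pprc1 was lower by a difference of -2.76 residual SDs (adjusted p = 0.00612), all on compressed values. After quantile normalization Tfam still passed, but Gabpb1 and Tfb2m did not (0.66 and 0.41 residual SDs, limma adjusted p = 0.472 and 0.734). Pprc1 turned to 1.05 residual SDs there. After median centring it passed as higher (1.39 residual SDs, adjusted p = 0.0374), as did 27524 of all 31042 probe sets. Ppargc1a, Nrf1, Gabpa, Esrra and Yy1, the better-known regulators of respiratory genes, did not pass by their brightest probe set. For Nrf1, whose brightest probe set differed by 1.53 residual SDs, 1 dimmer probe set was lower (-2.41 residual SDs, adjusted p = 0.0123). For Yy1, whose brightest was compressed and differed by -0.41 residual SDs, 2 dimmer ones were lower (-2.28 and -2.76 residual SDs, adjusted p = 0.0154 and 0.00594). The first of the 2 was compressed. The second was not, and read 7.38 to 7.65 in linalool rats, against 7.62 to 8.02 in stress rats (log2).

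For the 4 members with a second probe set, the 2 probe sets of a gene were both uncalled for Ndufa7 and Ndufv3, while only the brighter one passed for Ndufa9 and Ndufaf7. The dimmer probe set of Ndufa9 differed by 0.91 residual SDs and that of Ndufaf7 by 1.12, in the same direction as the brighter one. The 2 probe sets of Ndufv3 differed by 0.50 and -0.52 residual SDs. A probe set shared by Ndufs5 and a processed copy of it was higher by 1.98 residual SDs (adjusted p = 0.0312), and one shared by Ndufa10 and Ndufa10l1 differed by 1.42 (adjusted p = 0.0924). Which gene these probe sets measured cannot be told apart, so neither was counted.

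Restraint alone left no complex I probe set past the threshold. Against controls 0 of 46 passed (limma, adjusted p), where 0.554% of all probe sets did, and 3 had an unadjusted p under 0.05, where 16% of all probe sets did. At a share of 0.554% over all probe sets, 0 of 46 is no result about the members. The exact rank-sum test called 0 of all 31042 probe sets here, so it says nothing about the members either. Of the 46 differences 21 were positive and 25 negative, with a median of -0.147 residual SDs beside 0.12 over all probe sets. For 0 of the 46 did all stress arrays lie above or below all controls, which was so for 1.07% (above) and 0.715% (below) of all probe sets. By role, the medians were -0.11 for the 6 core subunits, -0.18 for the 9 matrix-arm and -0.20 for the 18 membrane-arm accessory genes, and 0.015 for the 6 Ndufaf factors.

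The smallest p belonged to Ndufa4, with 12.10992, 12.11005 and 12.11013 in stress rats, against 12.11010, 12.11015 and 12.11026 in controls (difference -2.03 residual SDs, limma adjusted p = 0.161). Of the stress arrays 5 lay below all controls. Ndufaf5 (1.61 residual SDs, adjusted p = 0.225) and Ndufaf3 (-1.38, adjusted p = 0.282) followed. Ndufb3 (1.25), Ndufs1 (1.06), Ndufaf1 (1.04) and Ndufa4l2 (0.80) had positive differences, and Ndufv3 (-1.07), Ndufb1 (-0.86) and Ndufv2 (-0.79) negative ones, with adjusted p between 0.33 and 0.512. Ndufa3 differed by 0.61 residual SDs in this comparison (adjusted p = 0.624). Both comparisons use the same stress rats, subtracted in one and subtracted from in the other. Among the 7 uncompressed members here, Ndufs7 had 11.34, 11.37 and 11.45 in stress rats, against 11.18, 11.35 and 11.44 in controls, and Ndufb7 had 11.03, 11.09 and 11.19 in stress rats, against 10.98, 11.02 and 11.29 in controls. Stress and control arrays overlapped throughout.

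The 2 sets treat the same stress arrays differently. Over their 6 values, the median correlation of a complex I probe set with itself in the other set was r = 0.978 (lowest 0.851, over 46 probe sets, the points being the same 6 arrays), and the same array was highest for 31 of 46. The size of the spread was another matter: 26 probe sets were compressed in both sets, 13 only in the set with controls, 2 only in the set with linalool, and 5 in neither. For 16 of 46 the SD of the 6 stress arrays differed over 10-fold. Ndufa3 is an example, with an SD of 0.0538 next to linalool arrays and 6.2e-05 next to controls. A log2 difference in one set therefore cannot be set against one in the other, and this was not done.

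**Figure D3:**
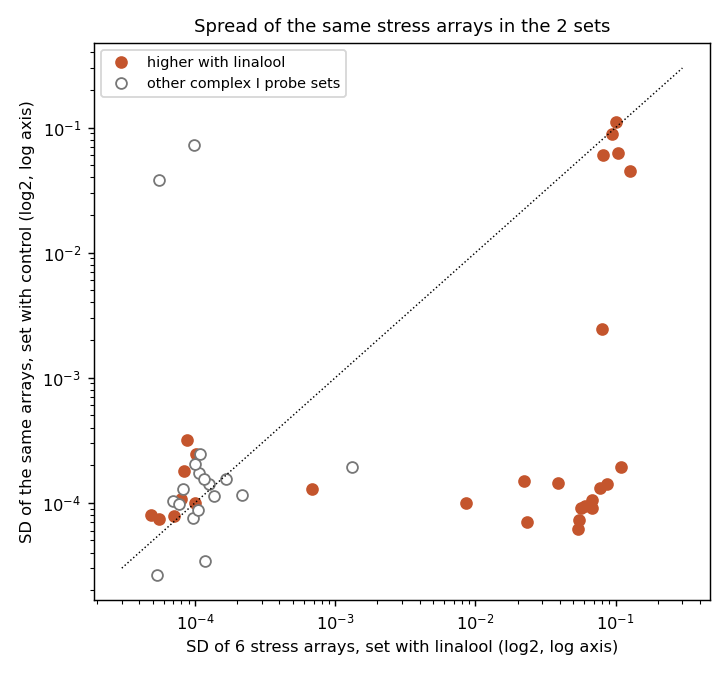
SD of the 6 stress arrays for each of the 46 complex I probe sets, in the set normalized with linalool arrays (horizontal, log axis, log2 units) and in the set normalized with controls (vertical, log axis, log2 units). Orange points were higher with linalool, open points were not, and the dotted line marks equal spread. 13 probe sets lie at the lower right, compressed only next to controls, and 2 at the upper left.

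Averaged over the 42 genes, in residual SDs around each gene's mean, the linalool rats 1 to 6 stood at 2.03, 1.03, 1.24, 0.32, 1.39 and 1.32, against -1.58, 0.21, -1.14, -1.30, -1.32 and -2.20 in the stress rats. Linalool rat 4 was lowest in its group and stress rat 2 highest, and these nearly met. In the other set the stress rats had -0.41, 1.33, 0.047, -0.079, -0.26 and -0.92, against -0.53, 1.30, -0.21, 0.041, -0.36 and 0.057 in controls. The rats numbered 2 stood highest in both of these groups. Without both arrays numbered 2, an alternative chosen after the data were seen, 27 complex I probe sets were higher with linalool and 0 lower. Over all 31042 probe sets 3603 were then higher and 2510 lower. In stress against control 0 complex I probe sets passed, where 104 of all did.

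Measures of RNA and labelling moved with linalool as well. The 3' minus 5' signal of the beta-actin control probe sets, a common measure of RNA and labelling quality, was 1.25 to 1.32 in linalool rats and 1.40 to 1.61 in stress rats, with no overlap (log2). A labelling spike from a bacterial transcript, phe, read 8.37 ± 0.0899 in linalool rats and 8.03 ± 0.0583 in stress rats by its 3' probe set (SD, n = 6 each, adjusted p = 0.000513), and the rat 5S rRNA control read 7.78 ± 0.115 in linalool rats and 8.17 ± 0.106 in stress rats (adjusted p = 0.00176). With the beta-actin gap as a covariate, added after the data were seen, only Ndufa3 of the 46 passed, at a difference of 9.04 residual SDs (adjusted p = 0.0356; 1.69e-06 to 0.0356 over its alternatives). The differences of Ndufa4, Ndufb5, Ndufa12 and Ndufv2 were then 7.35, 5.89, 5.24 and 5.08 residual SDs (adjusted p between 0.0523 and 0.123). Those of Ndufb11, Ndufaf3 and Ndufs8 were 3.78, 2.16 and 2.06 (adjusted p = 0.214, 0.463 and 0.470), and over all probe sets 86 passed. Since the gap does not overlap between the groups, odour and whatever moved the gap cannot be told apart. In stress against control the gap was 1.43 to 1.70 in stress rats and 1.35 to 1.51 in controls.

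**Figure D4:**
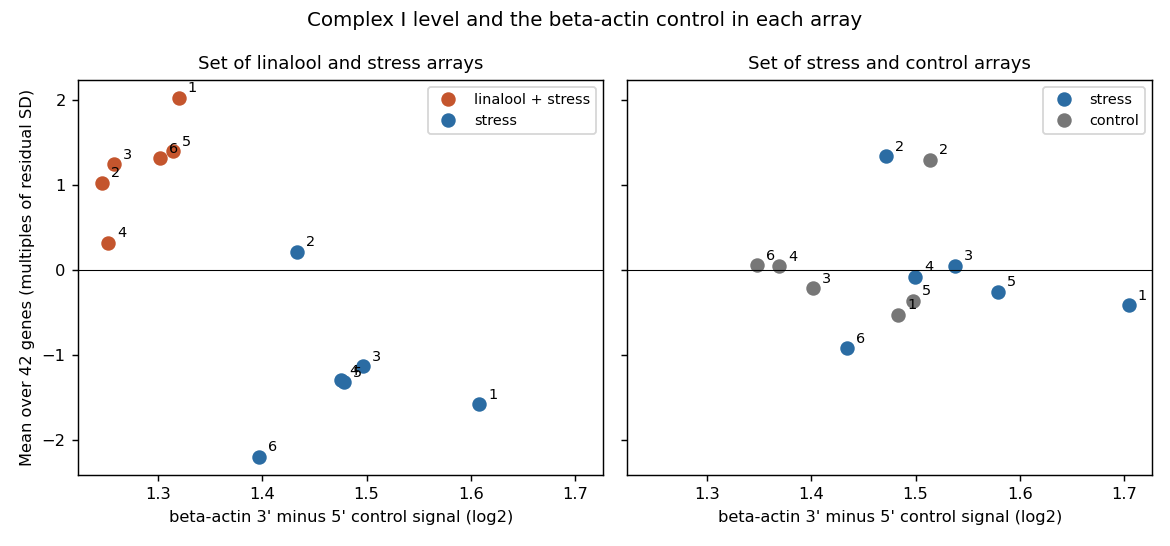
Mean of the 42 complex I genes in each array, in multiples of the residual SD around each gene's mean (vertical), against the 3' minus 5' beta-actin control signal (horizontal, log2). Numbers are rat numbers. On the left, linalool plus stress arrays (orange) lie at gaps of 1.25 to 1.32 and stress arrays (blue) at 1.40 to 1.61; on the right, stress arrays (blue) and controls (grey) overlap on both axes.

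Markers of cell types were followed beside the complex I genes. Over all genes 19.3% were higher with linalool and 9.08% lower. Calls on 1 or 2 markers of a list are therefore no result about a cell type. With linalool, 0 of 9 neuron markers were higher and 2 lower (median -0.90 residual SDs). Their mean log2 level was 11.62 to 11.74 in linalool rats and 11.75 to 11.80 in stress rats. Their score, the mean in residual SDs around each marker's mean, overlapped: -1.46 to 0.38 in linalool rats and 0.12 to 1.00 in stress rats. Of 7 thalamus markers 2 were lower and 0 higher, with levels of 9.90 to 10.41 in linalool rats and 10.08 to 10.95 in stress rats. Of 7 microglia markers 2 were higher and 0 lower, and of 7 astrocyte markers 1 was higher and 1 lower. Oligodendrocyte (0 higher, 1 lower of 6), endothelial (1 higher of 7), meningeal (1 higher of 14), pituitary (1 lower of 7) and choroid plexus markers (0 of 6) gave few calls, and 1 of the 11 hypothalamic markers was higher. In stress against control 0.341% of all probe sets were higher and 0.213% lower. There 0 of 9 neuron markers passed (median 1.10 residual SDs). Their score was 0.08 to 0.87 in stress rats and -0.70 to -0.36 in controls, with no overlap. Their levels did overlap, at 11.71 to 11.76 in stress rats and 11.54 to 11.73 in controls. Of 7 endothelial markers 1 was lower in that comparison (median -1.34), with levels of 9.56 to 9.64 in stress rats and 9.69 to 9.89 in controls. The endothelial scores overlapped, at -1.62 to -0.32 in stress rats and -0.64 to 1.69 in controls. Of 14 meningeal markers 0 passed (median -1.43), with levels of 8.40 to 8.68 in stress rats and 8.31 to 10.18 in controls. The part of these markers in either complex I result was not tested.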

How the data were processed

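Hypothalamic RNA of 18 rats was hybridised to 1 array each. The authors deposited log2 signals per probe set; the scale was read from the range of the values, and the summarization and normalization methods are not given in the sources used here. Per the series design text, control and stress arrays were normalized as 1 set and stress and linalool arrays as another, so 24 columns cover 18 rats. Per the labels, 500 ng of total RNA per rat went into biotin labelling. Of 31099 probe sets in the table the 57 array controls were not tested, and gene symbols come from the platform's annotation table.

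Each set was tested two-sided by linear models with moderated variances (limma version 3.58.1, R version 4.3.3), without a filter or further normalization, with p-values adjusted by Benjamini-Hochberg over 31042 probe sets and a threshold of 0.05. The procedure was also run on simulated data with independent noise and 200 probe sets moved. That setting differs from these data, and no result here rests on it. Labels describe separate animals. Named genes are the core subunits, per comparison the 8 genes higher and the 5 lower with the smallest p, and the passing genes of the assembly and regulator lists. Members, lists and rules were chosen with earlier results of these data known. Alternatives covered gene summary, normalization, centring, variance moderation, an exact rank-sum test, filters, array weights, a replicate block, left-out arrays and, for stress against control, controls 4, 5 and 6 and a meningeal marker score. A beta-actin covariate, both arrays numbered 2 left out, and centring without compressed probe sets were added after the data were seen. Replicate numbers of the labels were not used as pairs in the main fits. Arrays of the same number correlated between 0.0755 and 0.223 for stress and control, and between -0.105 and 0.182 for linalool and stress. Some of these lay above 0.1, the value set for pairing, so a pairing by number was not settled.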

Additional observations from a re-analysis of the deposited data

Results flagged for a closer look

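In 7 of the 94 groups of 6 arrays examined (7.45%), 1 array stood apart by a gap that was a large share of the group's range. Chance gives about 1 in 20 independent groups. These groups reuse the same arrays for many genes, and the 6 stress arrays enter both sets. They are not independent, so the share cannot be judged against that rate. In 6 of the 7 the array was rat 2 of its group, at the high end. Among the stress rats in the set with controls this gap was 0.673 of the range for Ndufv2. Among the controls it was 0.629 for Ndufaf5 and 0.63 for Ndufv3. Among the stress rats in the set with linalool it was 0.628 for Ndufs7, 0.63 for Tfam, where rat 2 read 9.39 and the next stress rat 9.25, and 0.634 for Tmem186. The seventh was Ndufv1 in linalool rats, where rat 4 was lowest by 0.706 of the range. All but Tfam are compressed probe sets.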

How the results depend on the processing

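The count of 0 complex I calls in stress against control stayed at 0 under every alternative run. With 0.554% of all probe sets called in the main fit, 0 of 46 lies near the share over all. Its staying at 0 is therefore no result about the members. The rank-sum test and the meningeal score called 0 of all probe sets, and the fit without controls 4, 5 and 6 called 1. The beta-actin covariate called 11 and the replicate block 16. In linalool against stress the 30 calls (28 higher, 2 lower) became 18 after quantile normalization (17 higher, 1 lower). Of the 30, 17 were kept there, and the 1 lower call was neither Ndufs7 nor Ndufa4l2 (limma adjusted p = 0.996 and 0.672). There were 18 calls with compressed probe sets left out, also 18 when the rest were then centred (all higher in both), and 1 with the beta-actin gap as a covariate. With 1 array left out they numbered 24 to 32, and 22 of the 30 held in all 12 such fits. Median centring gave 45 higher and 0 lower, beside 27524 higher and 1466 lower of all 31042 probe sets. The other alternatives gave 22 to 30 calls. Replicate numbers used as a block left 22 higher and 0 lower, beside 3294 higher and 2254 lower over all probe sets. Own-number arrays correlated best for 3 of 6 rats in stress and control and for 1 of 6 in linalool and stress.

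Over all probe sets, the 172 calls of stress against control (61.6% higher) became 101 with 1 probe set per gene, 91 with the mean of probe sets, 77 after quantile normalization, 92 after median centring, 0 by the exact rank-sum test (16% of probe sets had an unadjusted limma p under 0.05), 104 without both arrays numbered 2, 1 without controls 4, 5 and 6, and 0 with the meningeal score. They were 16 with the replicate block (6 higher, 10 lower), 11 with the beta-actin covariate (5 higher, 6 lower), and 24 (without stress rat 1) to 205 (without control 2) with 1 array left out. Centring after compressed probe sets were left out made 75.7% of 222 calls higher. The 7763 calls of linalool against stress (56.7% higher) became 4229 and 4380 with 1 value per gene, 2608 after quantile normalization, 28990 after median centring (94.9% higher), 2864 and 2866 with compressed probe sets left out, without and with centring, 86 with the beta-actin covariate, and 6383 to 7466 with 1 array left out. The cause of these shifts was not tested.

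Signs turned for single genes, in residual SDs. In stress against control under quantile normalization they turned for Ndufs1 (-0.130), Ndufs3 (0.859), Ndufs8 (1.47), Ndufv2 (0.0837), Ndufb3 (-0.279), Ndufa3 (-0.814), Ndufaf3 (0.897), Ndufv3 (0.649) and Ndufb1 (1.31). Under median centring they turned for Ndufs3 (1.10), Ndufs8 (1.09), Ndufv2 (1.10), Ndufa4 (1.09), Ndufaf3 (1.09), Ndufv3 (1.08) and Ndufb1 (1.09). Without controls 4, 5 and 6 they turned for Ndufv1 (-0.103) and Ndufb7 (-0.265), with the meningeal score for Ndufv1 (-0.0996) and Ndufb7 (-0.280), and with the beta-actin gap for Ndufs8 (0.640) and Ndufb7 (-0.00422). With 1 array left out, Ndufs8 lay between -0.647 and 0.00214 and Ndufv1 between -0.207 and 0.521. None of these passed an adjusted p of 0.05. In linalool against stress they turned under quantile normalization for Ndufv1 (-1.06), Ndufa4l2 (0.471), Pprc1 (1.05) and Tmem242 (-0.0282). Under median centring they turned for Ndufs1 (1.48), Ndufs7 (1.47), Ndufa4l2 (0.873), Ndufc1 (1.48), Ndufb7 (1.49) and Pprc1 (1.39). All but Ndufa4l2 (adjusted p = 0.161) then passed as higher (adjusted p = 0.0358 to 0.0374), so that Ndufs7 and Pprc1 passed in opposite directions. Since 27524 of all 31042 probe sets passed as higher under that centring, these turns are no result about single genes. With the beta-actin gap they turned for Ndufs1 (0.0207), Ndufv1 (-0.0809) and Ndufb7 (0.873). Ndufb7 also turned by the rank-sum test (a deviation of 1 from its expected rank sum) and without both arrays numbered 2 (0.327), and lay between -0.293 and 0.332 with 1 array left out.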
